A study of Caenorhabditis elegans with 24 samples.

Results

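The 9 genes described here encode the integrin receptor of C. elegans muscle and the proteins that tie it to actin. They were chosen by name from a fixed list of identifiers, as 9 of the 20687 worm genes in the table, namely pat-3, pat-2, pat-4, pat-6, unc-112, unc-97, deb-1, atn-1 and dim-1. All 9 had enough counts to be tested, as had 8279 genes in all. The samples were whole embryos of N2, the wild-type laboratory strain, taken with a mouth pipette from adults that had been cut open, and the labels name no agent or allele. The 8 stages ran from 60 to 500 min after the 4-cell stage (60, 120, 180 and 225 min, then 270, 330, 410 and 500 min), and each had 3 samples of 50 embryos. Messenger RNA was counted by CEL-Seq, a method that sequences only 3′ ends, so gene length does not enter the counts and alternative transcripts with a common end count as 1.

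Integrins are membrane receptors made of an α and a β chain. Outside the cell they hold the basement membrane, and inside it a chain of linker proteins holds actin. In C. elegans body wall muscle this attachment forms the dense bodies, which anchor thin filaments as Z-discs do in vertebrates, and the M-lines, which anchor thick filaments. The kinase-like protein PAT-4, the parvin PAT-6, the PINCH protein UNC-97 and the kindlin UNC-112 sit at both, while vinculin (DEB-1) and α-actinin (ATN-1) belong to the dense body. Loss of several of these proteins stops embryos in mid elongation with paralysed muscle, the Pat phenotype that gave pat-2, pat-3, pat-4 and pat-6 their names.

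The embryo was not dissected, so every level is an average over all its cells, and fewer cells of a type and less RNA per cell cannot be told apart. Libraries held 172620 to 977908 worm counts, and before scaling 1 count stood for 1.02 to 5.79 in every 1000000 worm counts. Levels are given as CPM (counts in every 1000000 worm counts, scaled by TMM). On that scale 1 count in replicate 1 of 500 min was 6.08 CPM. Values of a few CPM thus rest on very few counts. The summed level of 5 body wall muscle markers (hlh-1, myo-3, unc-54, unc-15 and tni-3) lay at 28.4 to 171 CPM in the 60 min libraries, at 70.7 to 97.9 in those of 225 min, at 851 to 1269 in those of 330 min and at 2765 to 3889 in those of 500 min. These markers did not move together. At 225 min the sum was mostly the regulator hlh-1 (mean 72.5 CPM), while myo-3, unc-54 and unc-15 had means of 1.4, 1.6 and 4.3 CPM. Lists for other cell types moved as well. At 500 and at 60 min, the 4 pharyngeal muscle markers summed to 936 to 1818 CPM against 12.44 to 23.9 CPM, the 4 epidermal markers to 1544 to 1653 CPM against 77.8 to 132 CPM, and the 3 germline markers to 30.4 to 85.7 CPM against 519 to 653 CPM. Their part in the results below was not tested. Libraries of a stage could differ in muscle genes. In replicate 3 at 270 min the muscle myosin gene myo-3 had 128 CPM, against 23.6 and 30.0 CPM in the other libraries of that stage, while hlh-1 had 76.3 CPM, against 97.5 and 73.2 CPM. At 330 min myo-3 had 191, 443 and 236 CPM, and at 500 min it had 492, 1019 and 1075 CPM. Whether embryos of any library were older or younger than their stage was not tested.

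By 500 min all 9 genes were higher than at 60 min at an adjusted p below 0.05 (edgeR quasi-likelihood test, Benjamini-Hochberg over all genes tested), where 46.1% of all genes were higher too. None of the 9 was lower, against 33.2% of all genes. The call of pat-3 sat at the threshold, and that of the other 8 did not. Their log2 change ran from 2.96 for unc-112 to 6.87 for deb-1, and the median of the 9 was 5.03, against 0.47 for all genes tested. At 500 min 8 of the 9 were higher by at least 2-fold, as were 42.4% of all genes. Over the whole time course all 9 passed, as did 91.6% of all genes, so that passing says little about these genes in particular.

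**Figure D1:**
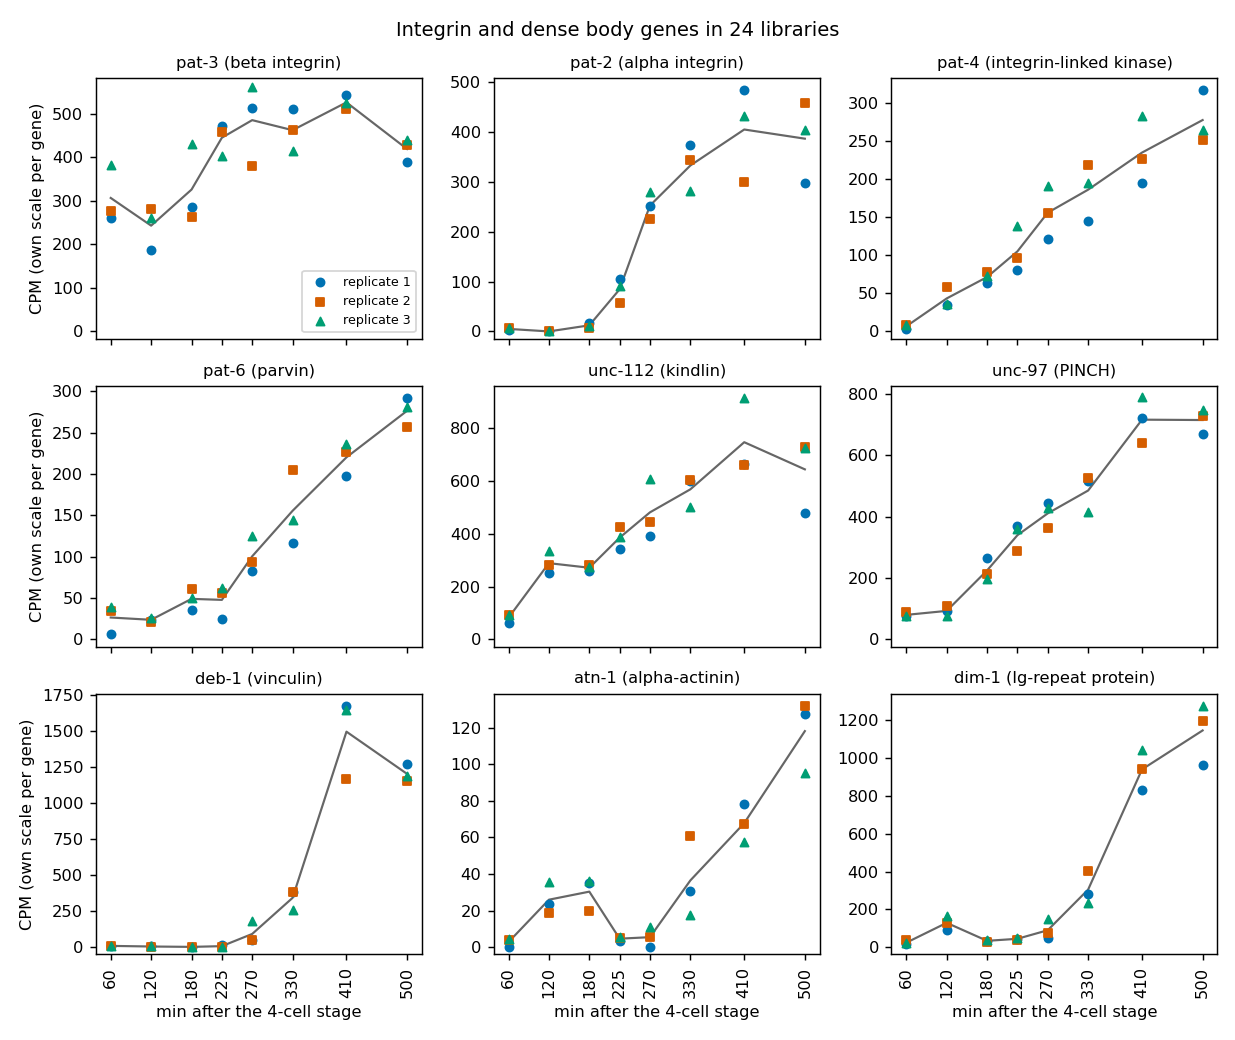
CPM of each of the 9 genes in all 24 libraries against time after the 4-cell stage, with 3 points a stage (replicates 1 to 3) and a line through the stage means. Each panel has its own scale. The curve of pat-3 starts high, those of unc-112, unc-97 and pat-4 climb step by step, and those of deb-1 and dim-1 stay low until 270 min and climb steeply after it.

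Of the receptor's chains, the transcript of β was there from the start and that of muscle α came later. pat-3 (ZK1058.2, chromosome III, 3908931 to 3914149, minus strand, coordinates here and below from WBcel235) encodes the β chain that every C. elegans integrin uses. Its transcript was already present at the first stage, with 261, 277 and 381 CPM at 60 min and, an hour later, 188, 280.1 and 260.5 CPM. It had 472, 459 and 403 CPM at 225 min, 542, 511 and 524 CPM at 410 min, and 389, 427 and 440 CPM at 500 min. The first stage thus held 58.3% of the highest stage mean, the largest such share of the 9, the next being 11.1% for unc-97. All 3 libraries of 410 min lay above all 3 of 60 min, with means of 526 ± 15.7 and 306 ± 65.2 CPM (SD, n = 3 each) and a log2 change of 0.77 ± 0.21 (SE, adjusted p = 0.00132). The change at 500 against 60 min was 0.45 ± 0.21 with an adjusted p of 0.0495, and it passed in 4 of the 36 other settings tried, so this call was not firm. That at 410 min passed in 34 of 36. pat-3 was the only one of the 9 with no stage 2-fold above 60 min.

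pat-2 (F54F2.1, chromosome III, 8818899 to 8825266, plus strand) encodes the α chain that pairs with PAT-3 in muscle, and its transcript was nearly absent at the first stages. It had 1, 3 and 4 counts at 60 min (3.1, 6.0 and 6.0 CPM), 0 in all 3 libraries at 120 min and 7, 6 and 4 counts at 180 min (17.7, 7.8 and 11.2 CPM). It then had 105, 56.4 and 91.9 CPM at 225 min, 251, 225 and 280.3 CPM at 270 min and 373, 343 and 282 CPM at 330 min. The libraries of 225, 270 and 330 min did not overlap with one another, although the step at 330 against 270 min did not pass. Its log2 change at 225 against 180 min was 2.86 ± 0.36 (adjusted p = 1.09e-06), and that at 270 against 225 min was 1.59 ± 0.25 (adjusted p = 1.57e-05). The means of 500 min (386 ± 81.3 CPM) and 410 min (405 ± 95 CPM) differed by less than the spread between libraries. The drop at 120 min passed against 60 min (adjusted p = 0.00938), but it compares 0 with 8 counts, and the floor of 3 counts over that stage (2.59 CPM) bounds it only at 1.95-fold or more. Without replicate 3 of 120 min its adjusted p was 0.0629. The last 41 bases of pat-2 (8825226 to 8825266) overlap a gene on the opposite strand, F54F2.9, whose stage means stayed between 41.1 and 97.9 CPM, and with the strand of counting not given in the sources used here its reads and those of pat-2 cannot be told apart there.

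ina-1 encodes the other α chain, which pairs with the same β chain in other tissues, and the onset stage (the first stage 2-fold or more above 60 min at an adjusted p below 0.05) was 225 min for pat-2 and 120 min for ina-1. ina-1 had 298, 336 and 293 CPM at 180 min, against 52.8, 88.0 and 91.2 CPM at 120 min, a log2 change of 1.92 ± 0.21 (adjusted p = 8.4e-09). At 180 min pat-2 had 4 to 7 counts a library. The stage means of ina-1 were highest at 330 min, while those of pat-2 were highest at 410 min. Levels of different genes were not compared, since the capture of their 3′ ends can differ.

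The 4 proteins that bind the integrin tail or each other did not start together. unc-112 (C47E8.7, chromosome V, 14691855 to 14696654, minus strand), the kindlin that binds the β tail, was among the first to rise. It had 252, 280.1 and 334 CPM at 120 min, against 62.2, 92.2 and 91.2 CPM at 60 min. All libraries of 120 min were above all of 60 min, with a log2 change of 1.81 ± 0.24 (adjusted p = 1.02e-07). There was then a pause, with means of 289 ± 41.5 CPM (120 min) and 271 ± 10.4 CPM (180 min), before the level reached 747 ± 146 CPM at 410 min. Its last 122 bases overlap gasr-8 on the opposite strand, which had a mean of 29.4 CPM at 500 min, against no count at 60 min.

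unc-97 (F14D12.2, chromosome X, 5593133 to 5594965, plus strand), the LIM-domain protein PINCH, rose after 120 min. It had 74.6, 88.2 and 76.2 CPM at 60 min, 93.8, 109 and 74.9 CPM at 120 min, and 265, 214 and 195 CPM at 180 min. The step from 120 to 180 min did not overlap and had a log2 change of 1.30 ± 0.22 (adjusted p = 2.59e-05). From there it climbed through 339.5 ± 45.7 CPM at 225 min and 485 ± 61.0 CPM at 330 min and reached 716 ± 75.4 CPM by 410 min, with 715 ± 41.8 CPM at 500 min. Its annotation overlaps no other gene, and neither does that of pat-3, pat-4 or pat-6.

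pat-4 (C29F9.7, chromosome III, 89453 to 94809, minus strand), the integrin-linked kinase, had next to nothing at 60 min, with 1, 4 and 6 counts (3.1, 8.0 and 9.0 CPM). It had 35.2, 58.7 and 35.8 CPM at 120 min, a log2 change of 2.53 ± 0.44 against 60 min (adjusted p = 1.18e-05). Afterwards no single step between neighbouring stages passed, yet each stage mean was above the one before it, at 71.3, 105, 156, 186, 234 and 277 CPM from 180 to 500 min. The transcript thus accumulated by a long, even climb, to a log2 change of 5.17 ± 0.35 at 500 against 60 min (adjusted p = 2.2e-15).

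pat-6 (T21D12.4, chromosome IV, 261886 to 264232, minus strand), the parvin that binds PAT-4, had a later onset stage than its partners. It had 24.5, 56.4 and 62.2 CPM at 225 min, against 6.2, 34.1 and 38.9 CPM at 60 min, which overlap. At 270 min it had 82.7, 93.8 and 125 CPM, above every library of 225 min, with a log2 change of 1.00 ± 0.31 (adjusted p = 0.0252). That step was lost without replicate 3 of 270 min (adjusted p = 0.184) and without replicate 1 or 2 of 225 min (adjusted p = 0.138 and 0.0503). Against 60 min the change at 270 min was 1.80 ± 0.33 (adjusted p = 1.36e-05), and by 500 min the gene had 292, 257 and 280.5 CPM.

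**Figure D2:**
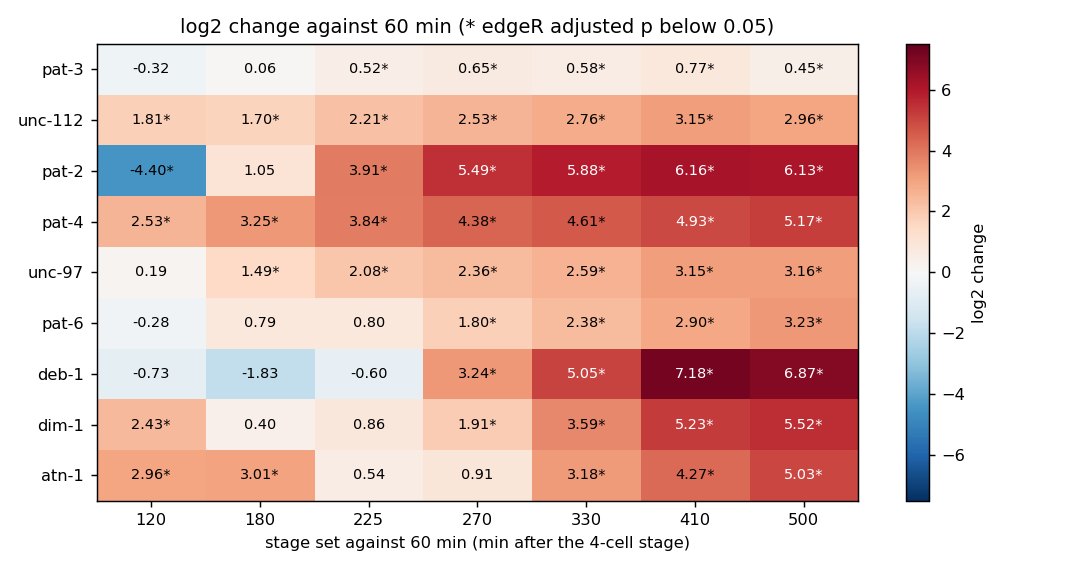
Fitted log2 change of each gene (rows) at each later stage against 60 min (columns), with a star where the edgeR adjusted p was below 0.05. unc-112 and pat-4 carry a star from 120 min on, pat-2 from 225 min and deb-1 from 270 min, while pat-3 does not go above 0.77, and dim-1 and atn-1 have early stars and a gap before the late ones. The value of -4.40 for pat-2 at 120 min is fitted to 0 counts and is no measure of size.

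The proteins that reach actin had the latest midpoints of rise on the CPM scale, although on the log2(CPM + 5) scale, which gives low levels more weight, that of atn-1 was early. deb-1 (ZC477.9, chromosome IV, 7085215 to 7094266, minus strand) encodes vinculin, which links the integrin side of the dense body to actin filaments. It had 2, 6 and 7 counts at 60 min, 1, 2 and 1 at 180 min and 4, 2 and 3 at 225 min. It then had 47.3, 48.8 and 181 CPM at 270 min, 385, 384 and 259 CPM at 330 min and 1671, 1167 and 1648 CPM at 410 min. The libraries of these 3 stages did not overlap. Log2 changes of 3.84 ± 0.56 at 270 against 225 min (adjusted p = 1.57e-05), 1.81 ± 0.33 at 330 against 270 min (adjusted p = 0.000941) and 2.13 ± 0.31 at 410 against 330 min (adjusted p = 3.67e-06) all passed. The step at 330 against 270 min was lost with replicates 1 and 2 summed (adjusted p = 0.0701). It was also lost without replicate 1 or 2 of every stage (adjusted p = 0.115 and 0.107). At 500 min deb-1 had 1270, 1153 and 1184 CPM, and the change from 410 min did not pass (adjusted p = 0.525). In replicate 3 of 270 min, where deb-1 stood at 181 CPM, the muscle genes myo-3, unc-54 and unc-15 were also at 128 to 143 CPM, against 5.9 to 41.4 CPM in replicates 1 and 2. Against 60 min deb-1 passed at 270 min with and without that library.

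dim-1 (C18A11.7, chromosome X, 8050466 to 8058220, minus strand) encodes a protein of immunoglobulin repeats that lies around the dense bodies and helps to keep thin filaments in place. Its level went up, down and up again. At 120 min it had 93.8, 131 and 163 CPM, against 15.6, 36.1 and 20.9 CPM at 60 min, a log2 change of 2.43 ± 0.35 (adjusted p = 7.02e-07). At 180 min it had 35.3, 27.4 and 39.1 CPM, below every library of 120 min, with a log2 change of -2.03 ± 0.34 (adjusted p = 2.18e-05). Its stage mean then climbed through 305 ± 86.4 CPM (330 min) and 941 ± 105 CPM (410 min), and was 1146 ± 161 CPM in the 500 min libraries. The steps at 330 against 270 min and at 410 against 330 min had log2 changes of 1.67 ± 0.27 and 1.64 ± 0.25. The step at 270 against 225 min rested on replicate 3 of 270 min, without which it was 0.46 with an adjusted p of 0.545, and it was also lost without any 1 of the 3 libraries of 225 min (adjusted p = 0.0553 to 0.0981).

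atn-1 (W04D2.1, chromosome V, 12478411 to 12484449, plus strand) encodes α-actinin, which cross-links actin filaments in the dense body, and it had the lowest counts of the 9. It had 0, 2 and 3 counts at 60 min and 4, 7 and 22 at 120 min. It had 14, 15 and 13 counts at 180 min (35.3, 19.6 and 36.3 CPM) and 1, 2 and 4 counts at 225 min (3.5, 4.9 and 5.7 CPM). As with dim-1, an early level was lost before the late climb began, here with a log2 change of -2.47 ± 0.61 at 225 against 180 min (adjusted p = 0.00712, and 0.0603 without replicate 3 of 225 min). This drop passed in 31 of the 36 other settings. It also failed with summed and with limited spike-ins (adjusted p = 0.159 and 0.129) and without replicate 1 or 3 of every stage (0.0568 and 0.137). atn-1 had 30.9, 60.8 and 17.8 CPM at 330 min, 78.4, 67.5 and 57.6 CPM at 410 min and 128, 132 and 95 CPM at 500 min. The step at 330 against 270 min had a log2 change of 2.27 ± 0.54 (adjusted p = 0.00467). Its libraries of 330 and 410 min overlap, although that step passed as well (adjusted p = 0.0304). It was lost without replicate 1 or 3 of 330 min (adjusted p = 0.0741 and 0.294) and without replicate 1 or 2 of 410 min (adjusted p = 0.109 and 0.0757).

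Transcripts of the yolk genes vit-1 to vit-6, which embryos do not make and the adult intestine does, were uneven among the libraries at early and late stages. Their sum was 1229, 84.2 and 126 CPM at 60 min, 921, 419 and 78.2 CPM at 120 min, 0, 1151 and 339 CPM at 330 min and 6.1, 732 and 475 CPM in the 500 min libraries. At 120 min dim-1 and atn-1 were highest in replicate 3, at 163 and 35.8 CPM, where the yolk sum was lowest, and zyx-1 was highest in replicate 1, where the yolk sum was highest. The zyxin gene zyx-1, another late-rising attachment protein, also stood high at 120 min, with 111, 26.7 and 68.4 CPM, against 21.8, 14 and 7.5 CPM at 60 min (log2 change 2.25 ± 0.49, adjusted p = 0.000359), and was at 0 to 5.2 CPM at 180 min. The 5 body wall muscle markers summed to 171, 54.1 and 28.4 CPM at 60 min, 99.7, 74.7 and 19.5 CPM at 120 min and 174, 149.97 and 139.5 CPM in the libraries of 180 min. The sum at 180 min was mostly hlh-1 (mean 138 CPM), while myo-3, unc-54 and unc-15 had means of 1.3, 6.4 and 8.3 CPM. Of these markers, the myosin gene unc-54 had 41.0, 32 and 4.9 CPM at 120 min, against 87.1, 24.1 and 7.5 CPM at 60 min, while myo-3 was at 0 to 9.3 CPM at both stages. Like the yolk sum, the marker sum was highest in replicate 1 and lowest in replicate 3 at 120 min, and the part of either in these early levels was not tested.

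**Figure D3:**
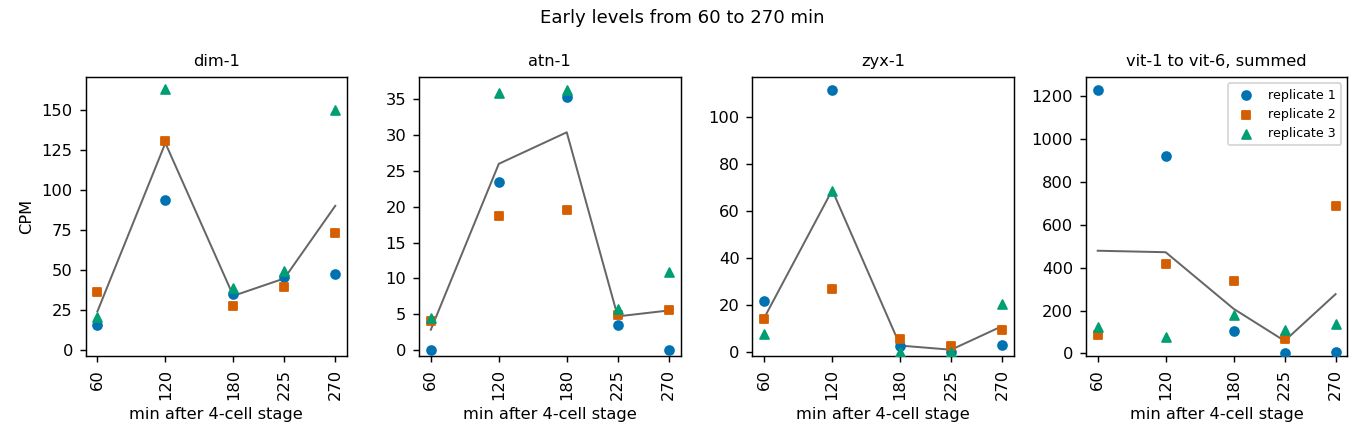
CPM of dim-1, atn-1, zyx-1 and the summed yolk genes vit-1 to vit-6 in the 3 libraries of each stage from 60 to 270 min, each panel on its own scale, with a line through the stage means. dim-1 and zyx-1 peak at 120 min and atn-1 is raised at 120 and 180 min, while the yolk sum is highest in replicate 1 of 60 and 120 min.

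The order of onset was read in 2 ways. The onset stage, as defined for ina-1, was 120 min for unc-112, pat-4, dim-1 and atn-1, 180 min for unc-97, 225 min for pat-2 and 270 min for pat-6 and deb-1, and pat-3 had none. Those past both limits were 4, 4, 4, 7, 8 and 8 of the 9 from 120 to 410 min, against 18.8, 23.3, 25.1, 30.7, 35.1 and 38.9% of all genes. When a lasting onset was asked for, a rule added after the values were seen under which every later stage must pass too, dim-1 moved to 270 min and atn-1 to 330 min. The midpoint time was the time at which the stage mean passed halfway between its lowest value before the peak and its peak, which compares timing without comparing levels. By stage means it was 202 min for pat-3, 239 min for unc-112, 257 min for pat-2, 258 min for pat-4, 262 min for unc-97, 324 min for pat-6, 358 min for deb-1, 365 min for dim-1 and 391 min for atn-1. The first and last places depend on this rule. Timed at 25% of the rise, unc-112 (108 min) came before pat-3 (171 min). By that rule atn-1 (321 min) came before dim-1 (330 min) and deb-1 (332 min).

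Computed in each of the 3 series of same-numbered libraries, which were not treated as paired, the midpoint was 194 ± 18.1 min for pat-3, 265 ± 8.88 min for pat-2, 357 ± 6.22 min for deb-1 and 397 ± 12.7 min for atn-1 (SD, n = 3). It was least certain for pat-4, at 231 to 354 min, and unc-97, at 242 to 334 min. Among neighbours in this order, the series of pat-3 and unc-112, of unc-112 and pat-2, and of dim-1 and atn-1 did not overlap, and the other 5 neighbouring pairs did. Of all 36 pairs of the 9 genes, 25 did not overlap. No p is given, since all genes were read from the same 3 series, and 3 series are too few for an exact test to go below 0.05. The receptor chains and the kindlin were thus each ahead of vinculin, dim-1 and α-actinin in every series on the CPM scale, and the order within the group of pat-2, pat-4 and unc-97 was not resolved. On the log2(CPM + 5) scale the midpoint of atn-1 was 121 min, ahead of both receptor chains (194 min for pat-3 and 206 min for pat-2), and those of unc-112 and pat-4 were 113 and 143 min.

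**Figure D4:**
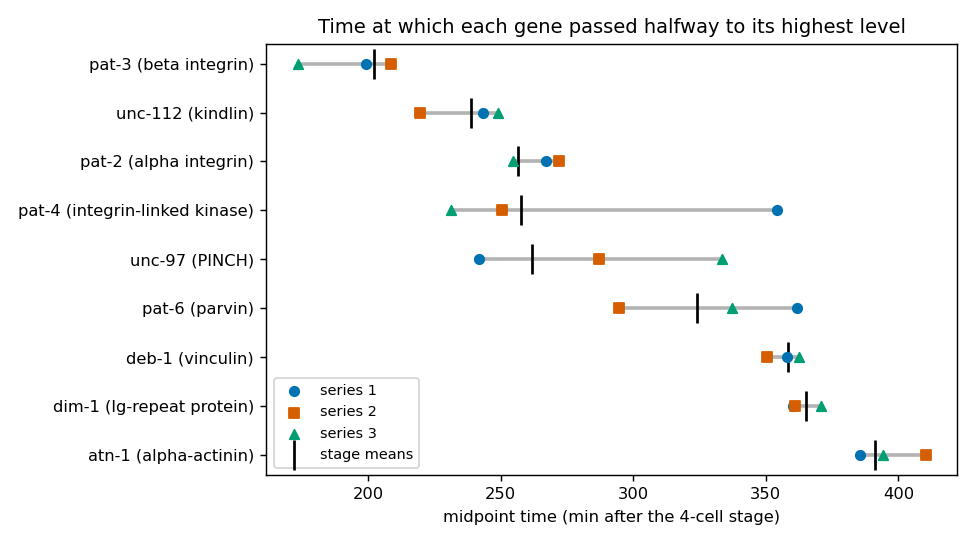
Midpoint of the rise of each gene in min after the 4-cell stage, with a bar for the value from stage means, a symbol for each of the 3 series and a grey line over their range. Genes run from pat-3 at 202 min at the top to atn-1 at 391 min at the bottom, and the range of pat-4 reaches from 231 to 354 min.

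Counted stage by stage, 4 of the 9 were higher at 120 min than at 60 min (23.6% of all genes) and 1 was lower (20.1%). The count of higher genes was then 4 at 180 min (28.0%), 5 at 225 min (29.5%) and 8 at 270 min (34.9%), and all 9 were higher at 330 min (39.1%) and 410 min (42.1%). After the 4 genes already higher at 120 min, the largest later jump in this count came between 225 and 270 min. It was made by pat-6, deb-1 and dim-1. Its size depends on the threshold, since dim-1 and pat-6 narrowly missed it at 225 min (edgeR adjusted p = 0.0584 and 0.0592). At an unadjusted p below 0.05 the count was 7 at 225 min and 8 at 270 min. From 180 min on none was lower than at 60 min by edgeR, nor at an unadjusted p below 0.05, while DESeq2 called deb-1 lower at 180 min. Of all genes, 24.6, 26.6, 28.5, 30.3 and 33.0% were lower from 180 to 410 min. The median log2 change of the 9 from 120 to 410 min was 0.19, 1.05, 0.86, 2.36, 3.18 and 4.27 in order of stage, so most of it came after 225 min. The median of all genes stayed between 0 and 0.33 at these stages.

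Between neighbouring stages, pat-2 and unc-97 were higher at 180 than at 120 min (8.17% of all genes) and dim-1 was lower (9.22%). At 225 against 180 min pat-2 was the 1 gene higher (3.07%) and atn-1 the 1 gene lower (2.57%). The step at 270 against 225 min had 4 higher (8.2%), namely deb-1, pat-2, pat-6 and dim-1, then 3 were higher at 330 against 270 min (6.17%), namely deb-1, dim-1 and atn-1. At 410 against 330 min 4 were higher (18.8%), namely deb-1, dim-1, atn-1 and unc-97, the last with a log2 change of 0.56 ± 0.18 (adjusted p = 0.018), which was lost without replicate 3 of 330 min (0.125) and without replicate 1 or 3 of 410 min (0.0512 and 0.085). None was lower in these 3 steps, against 4.11, 1.49 and 11.2% of all genes. At 500 against 410 min none passed by edgeR or DESeq2, where 14.5% of all genes were higher and 7.38% lower, and at an unadjusted p below 0.05 atn-1 alone was higher. The counts of these steps were less firm than those against 60 min. Without replicate 2 of every stage, none of the 9 passed at 330 against 270 min, and 1 passed without replicate 1. Over all genes this step then had 12 and 241 calls, against 634 with every library, so calls were lost over all genes too.

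Other genes of integrin attachment were taken from a list of 24 proteins, chosen, as were the lists below, with earlier results of these data known. Of these 22 were tested and 20 were higher at 500 than at 60 min (46.1% of all genes). The list had 0 lower (33.2% of all genes) and a median log2 change of 4.33. Midpoints of the 20 ran from 104 to 400 min, with a median of 343 min, against 262 min for the 9 genes and 340 min for all genes higher at 500 min. The earliest were the kinase gene src-1 at 104 min, the paxillin gene pxl-1 at 149 min and ina-1 at 167 min. The call of src-1 was at the threshold (log2 change 0.56 ± 0.255, adjusted p = 0.0452) and was lost by DESeq2 (0.0519), with no filter (log2 change 0.33, adjusted p = 0.196) and with library size alone (0.13, adjusted p = 0.61). It was also lost with both spike-in scalings, with replicates 1 and 2 summed and with identifier collisions corrected. The same held without replicate 1, 2 or 3 of every stage (adjusted p from 0.0882 to 0.536 over these settings). Its place as the earliest is thus not firm. pxl-1 was transient, with a peak at 225 min (77.0, 61.3 and 43.8 CPM) and 6.3, 4.8 and 0 CPM at 410 min. The latest were alp-1 at 389 min, ketn-1 at 397 min and zyx-1 at 400 min, which encode an Enigma-type LIM protein, the giant immunoglobulin-repeat protein kettin and zyxin. Named outside the rule and after its values were seen, the talin gene tln-1, whose product binds the β tail beside UNC-112, had its onset at 120 min like unc-112 and its midpoint at 269 min.

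Of 21 sarcomere genes 20 were tested. At 500 against 60 min 16 were higher (46.1% of all genes), with 1 lower (33.2%) and a median log2 change of 4.49. All 16 had midpoints from 331 to 440 min, with a median of 369 min, later than 6 of the 9 attachment genes. The earliest were the actin gene act-4, the cofilin gene unc-60 and the troponin I gene tni-1 at 331 to 339 min, and the latest the troponin genes unc-27, tnt-2 and tni-3 at 431 to 440 min. That of tnt-2 rests on a call at the threshold (adjusted p = 0.0467, and 0.497 by DESeq2). The lower gene was act-2, with a log2 change of -0.87 ± 0.19, although actin genes are close copies whose reads counting can split between them. Midpoints of deb-1, dim-1 and atn-1, at 358 to 391 min, lay inside the range of the sarcomere genes. The muscle regulator hlh-1, which encodes the MyoD of C. elegans, was highest at 180 min, at 132 to 149 CPM, when deb-1 had 1 or 2 counts a library.

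**Figure D5:**
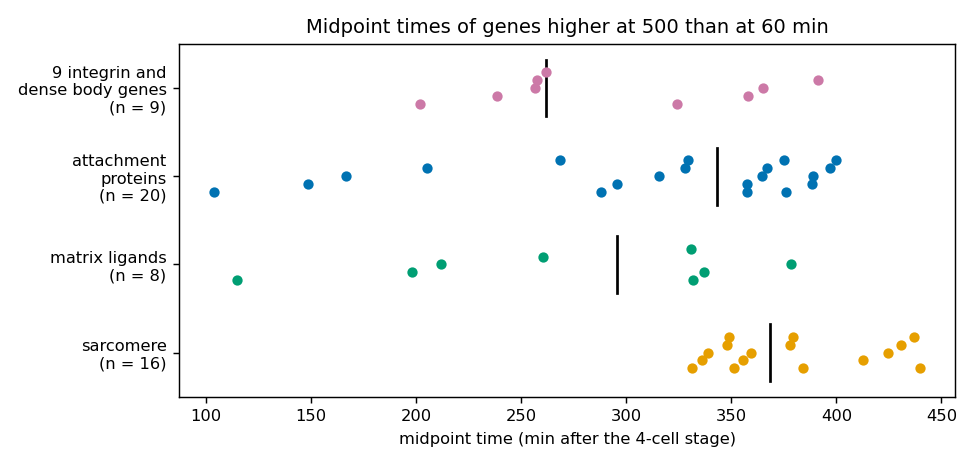
Midpoints in min after the 4-cell stage of the genes higher at 500 than at 60 min, a point a gene and a bar at each median, for the 9 integrin and dense body genes, other attachment proteins (n = 20), matrix ligands (n = 8) and sarcomere genes (n = 16). The 9 genes spread from 202 to 391 min, and the sarcomere genes lie at 331 min or later.

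How alike the 9 profiles were was described by Pearson's r over the 8 stage means on log2(CPM + 5). With the mean of the other 8, pat-6 was the most alike (0.98), followed by unc-97 (0.93) and deb-1 (0.92), and pat-3 (0.76) and atn-1 (0.67) were the least. Among 6903 other genes with a stage mean of at least 50 CPM, the 5 most like the mean profile were Y110A2AL.4, ZK512.11, the ribosomal protein genes rpl-30 and rpl-28, and C48E7.1, with r from 0.993 to 0.997. ZK512.11, rpl-28 and C48E7.1 overlap another gene.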

How the data were processed

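The authors deposited raw counts per gene and used HTSeq, per the submitters' processing notes. Its build, annotation and strand, and the aligner, were not given in the sources used here. Counts shared a highest value of 1023, and a 5-base molecular identifier has 1024 forms. The labels do not state counting of identifiers. All 24 columns were used. Of 20687 worm genes 20086 matched the WBcel235 annotation by identifier, which gave coordinates. The 92 spike-ins (2.36 to 10.21% of a library) were left out of library sizes and tests. Replicates 1 and 2 of each stage carry the same running number in the labels, so p-values measure the spread between samples, which may be technical. Chi-square per degree of freedom between replicates was 1.82 or more, so no pair differed by sampling noise alone. This check cannot tell technical replicates from biological ones.

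The test was edgeR 4.0.16 (R 4.3.3) on all 24 libraries, with TMM factors, filterByExpr (minimum count 10, minimum total 15) and stage as a factor, in 13 contrasts and 1 time course test, two-sided, adjusted over 8279 genes. Floors of 3 counts cover counting error only. Alternatives were DESeq2 1.42.0, other scalings (DESeq2 size factors, library size, spike-ins), no filter, a correction for identifier collisions, a replicate block, replicates 1 and 2 summed, and leaving out libraries. A self-test on simulated counts was run. The 9 genes and the lists were chosen with earlier results of these data known. All 9 genes are named. From each list the 3 earliest and 3 latest midpoints among genes higher at 500 min are named, with any lower gene. Of the list genes given with values, unc-95, myo-3, tln-1, zyx-1, alp-1, ketn-1, ina-1, src-1, unc-52, epi-1, let-2, pxn-2, unc-60, tni-3 and act-4 overlap another annotated gene, so their counts are uncertain. Promoter and protein sequences were not analysed here.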

Additional observations from a re-analysis of the deposited data

How the results depend on the processing

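The call of all 9 genes over the time course held in 34 of 36 alternatives and was 8 with summed spike-ins and with spike-ins limited to those with no value over 500, a setting added after the data were seen, where pat-3 had adjusted p = 0.165 and 0.149. pat-3 at 500 against 60 min ran from 0.02 to 0.58 in log2 change, with adjusted p from 0.026 to 0.936. Counts of genes against 60 min moved little, and counts between neighbouring stages moved more. With library size alone, 2 were higher at 410 against 330 min. With summed spike-ins, 1 was higher and 0 lower at 180 against 120 min, 0 were lower at 225 against 180 min, 1 was higher at 270 against 225 min, 1 at 330 against 270 min and 0 at 410 against 330 min. With the limited spike-ins these counts were 1 higher at 180 against 120 min, 0 lower at 225 against 180 min, and 1 higher at each later step up to 410 min. With no filter, 1 gene (deb-1) was lower at 180 against 60 min and 2 were higher at 410 against 330 min. DESeq2 gave 1 lower at 180 against 60 min and 2 higher at 225 against 180 min. With replicates 1 and 2 summed, 2 were higher at 225 against 180 min. In that setting deb-1 at 330 against 270 min and pat-3 at 225, 330 and 500 against 60 min no longer passed. There pat-6 newly passed at 180 and 225 against 60 min, at 180 against 120 min and at 410 against 330 min. In the main tests the replicate numbers were not treated as pairing the samples, since no label says that they do. Column names differ in prefix by replicate number. Of 84 same-numbered pairs 48 correlated over 0.1 (median 0.122, against -0.0827 for different numbers). By number these were 23, 17 and 8 of 28 pairs for replicates 1, 2 and 3. Pairs were correlated on deviations from stage means, which cancel within a stage, so these medians are tied to each other. As a hint from the data, 17 of 24 libraries were closest to their own number. With the replicate block, 4 were higher at 180 against 120 min and 2 at 225 against 180 min. The cause of these moves was not tested. Among changes of the 9 that passed, the only one that reversed was unc-97 at 410 against 330 min, -0.35 (adjusted p = 0.616) with summed spike-ins.

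Leaving out a replicate or a library gave 4 to 5 higher and 0 to 1 lower at 180 against 60 min, 4 to 6 higher at 225 min, 7 to 8 at 270 min, 8 to 9 at 330 and 500 min, and 0 to 1 lower at 120 min. Between neighbours it gave 1 to 3 higher at 180 min, 1 to 2 higher and 0 to 1 lower at 225 min, 2 to 4 higher at 270 min, 0 to 3 at 330 min and 2 to 4 at 410 min. The other counts kept their value. The onset stage was the same in all 37 settings for 7 genes. That of pat-6 was 180 min without replicate 3 of 60 min and 225 min without replicate 1 of 225 min, and pat-3 had one, 225 min, with no fold minimum. pat-3, unc-112, pat-2, pat-4 and unc-97 had earlier midpoints than the other 4 in 33 of 34 settings, the exception being the log2(CPM + 5) scale, where atn-1 was at 121 min.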

Other observations

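The matrix that these receptors hold was described from a list of 10 genes, of which 9 were tested. All 9 were higher at 270 and at 330 min than at 60 min (34.9 and 39.1% of all genes), and 8 at 500 min (46.1%). At 500 min 0 were lower (33.2% of all genes) and the median log2 change was 3.65. The laminin α chain gene epi-1, the peroxidasin gene pxn-2 and the second laminin α chain gene lam-3 had the earliest midpoints, at 115, 198 and 212 min. The SPARC gene ost-1, the type IV collagen gene let-2 and the perlecan gene unc-52 had the latest, at 332, 337 and 379 min. These midpoints time rises to different peaks. Stage means were highest at 180 min for epi-1, 330 min for pxn-2 and 270 min for lam-3, but at 410 min for let-2 and 500 min for ost-1 and unc-52. Of the other laminin genes, lam-2 did not pass at 500 against 60 min and lam-1 had too few counts to be tested. let-2 had 437, 510 and 771 CPM at 270 min, against 77.0, 58.9 and 56.6 CPM at 225 min. unc-52, which encodes the perlecan of the muscle basement membrane, had 225, 227 and 196 CPM at 330 min, against 23.6, 20.6 and 85.7 CPM at 270 min (log2 change 2.20 ± 0.35, adjusted p = 0.00028 by edgeR). Its midpoint lay between those of dim-1 and atn-1.

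Several attachment proteins were low at first, and 3 are given here. unc-96 had no count in any library of 60 and 120 min and had 23.6, 30.0 and 32.7 CPM at 270 min. unc-95 had 44.3 to 82.6 CPM at 270 min, against 0 to 3.0 CPM at 60 min. Both were named after their values were seen. alp-1 had a mean of 585 CPM at 500 min, against 0.5 CPM at 60 min.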
